A study of Mus musculus with 10 samples.

Results

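The R-spondin receptor pathway was followed through the fetal development of the mouse ovary in 10 genes: Rspo1, which encodes a secreted R-spondin, its receptors Lgr4 and Lgr5, the ubiquitin ligases Znrf3 and Rnf43, Ctnnb1, which encodes beta-catenin, the transcription factor gene Lef1, and the Wnt target genes Axin2, Sp5 and Apcdd1. Every probe set annotated to 1 of these symbols was taken, which gave 22 of the 45101 probe sets on the array and 10 of the 18193 genes. Of the 22, 19 passed the filter on low signals and were tested, and each of the 10 genes kept at least 1 tested probe set.

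R-spondins are secreted proteins that bind LGR receptors and, through them, take the ligases ZNRF3 and RNF43 off the cell surface, so that Frizzled receptors for Wnt ligands are not degraded. Wnt binding then stops the destruction complex from breaking down beta-catenin, which enters the nucleus and activates target genes together with TCF and LEF factors. In the mouse, loss of Rspo1 from the XX gonad is known to cause partial female to male sex reversal, and Rspo1, Wnt4 and beta-catenin are the known core of ovarian fate.

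RNA from whole embryonic mouse ovaries was hybridized to Affymetrix Mouse430_2 arrays, with 2 arrays for each of 5 stages, E11.5 and E12.5, then E14.5 and E16.5, and lastly E18.5 (days of embryonic development). The labels describe separate preparations at each stage, give no treatment, and name neither strain nor genotype. Each value below is a linear signal in arbitrary units, scaled so that every array had the same 75th percentile, and signals are not compared between probe sets. Changes are differences of log2(signal + 16), which understates the change of dim probe sets. They were tested with limma, and a probe set passed at a Benjamini-Hochberg adjusted p under 0.05 over all 27512 probe sets tested.

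E12.5 replicate 2 correlated with the other arrays at r = 0.418 to 0.470, against 0.873 to 0.964 among the other 9, and was left out of all tests. E12.5 is therefore 1 array, assumed to vary like the other stages, and its ratio of 3′ to 5′ signal for Actb was 10.6, whereas that of the 8 arrays from other stages was 1.51 to 2.22. A floor was set on each array at the 95th percentile of its unspiked bacterial control probe sets, 19.5 to 33.0 on the 9 arrays. Stamps in the array files put E11.5 with E12.5 in one hybridization run, E14.5 with E16.5 in another and E18.5 alone in another, so stage and run cannot be told apart in any comparison of stages except E12.5 with E11.5 and E16.5 with E14.5. All 7 ovarian somatic markers (Foxl2, Wnt4, Fst, Nr5a1, Gata4, Wt1 and Runx1) lay above the floor at every stage. Of the 5 germ cell markers, Tex101 was at or under it at E11.5 and E12.5.

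Promoters of 2 of these genes held a match to the TCF/LEF motif, the sequence that the DNA-binding partners of beta-catenin recognise. The RefSeq promoter table (GRCm38.p6) held 12 start sites of 7 of the 10 genes; Lgr5, Apcdd1 and Znrf3 were not matched. The motif CTTTGAA was searched, with CTTTGAT as the next, CTTTGTA as another and CTTTGTT as the last, on both strands of the 250 bases before each start, and 2 of the 12 windows (16.7%) held one, against 14.8% of 32851 windows in the table. The windows of Sp5 (chr2:70474673-70474922, plus strand) and of 1 of the 4 Lef1 starts (chr3:131156044-131156293, plus strand) are shown because these are the members' windows with a motif; capitals mark the motif or its reverse complement.
Sp5: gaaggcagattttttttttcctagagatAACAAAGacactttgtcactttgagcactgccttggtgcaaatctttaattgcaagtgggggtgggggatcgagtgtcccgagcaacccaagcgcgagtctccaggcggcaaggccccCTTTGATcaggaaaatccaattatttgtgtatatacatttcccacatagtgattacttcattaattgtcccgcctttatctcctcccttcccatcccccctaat
Lef1: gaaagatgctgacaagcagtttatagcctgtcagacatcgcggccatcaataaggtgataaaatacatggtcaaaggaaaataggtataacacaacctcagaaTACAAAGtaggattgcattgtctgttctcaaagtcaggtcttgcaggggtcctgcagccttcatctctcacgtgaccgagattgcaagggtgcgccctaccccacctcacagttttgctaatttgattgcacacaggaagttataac
A motif in these windows is a match of letters only, and binding was not measured.

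Between E11.5 and E18.5 members of the pathway were called in both directions, and the ligand gene Rspo1 did not pass the test. The count of lower calls was near the share of all probe sets. Lgr5 was 9.0-fold higher at E18.5 than at E11.5, and Axin2, Sp5, Apcdd1 and Rnf43 were also higher, while Lgr4 and the brighter Lef1 probe set were lower. Of the 19 tested probe sets, 10 were higher and 3 lower at E18.5 than at E11.5. Among all probe sets tested 26.2% were called in this comparison, 11.7% higher and the remaining 3989 lower. The arrays of the 2 stages did not overlap in 16 of the 19, with 11 higher and 5 lower at E18.5. Of all probe sets tested 33.5% were higher and 32.1% lower in this way, so the lower count is not above that share. The median log2 change was 0.85 over the 19 probe sets, 5 of them of Apcdd1, and 0.03 over all probe sets tested. Over the brightest probe set of each gene it was 0.57 for the 10 genes and -0.004 for all genes. Of the 13 calls, those of Rnf43, Axin2 1421341_at and Apcdd1 1418383_at are of probe sets that reached the filter value only at stages after E11.5, where they are high, so they count as no support. The same holds for these probe sets and Lgr5 1444519_at among the 11 that were higher without overlap. They are also in the median of the 19, and Rnf43 in that of the 10 genes, so neither median counts as support. With no filter on low values the 13 calls remained. Taking the brightest probe set of each gene, 5 of the 10 genes were higher and 2 lower, against 13.4% and 16.6% of 13304 genes. Here too the lower count is near that share. The 5 include Rnf43, whose call counts as no support. The 10 genes were chosen with earlier results of these data known, so these counts beside the shares are no test.

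**Figure D1:**
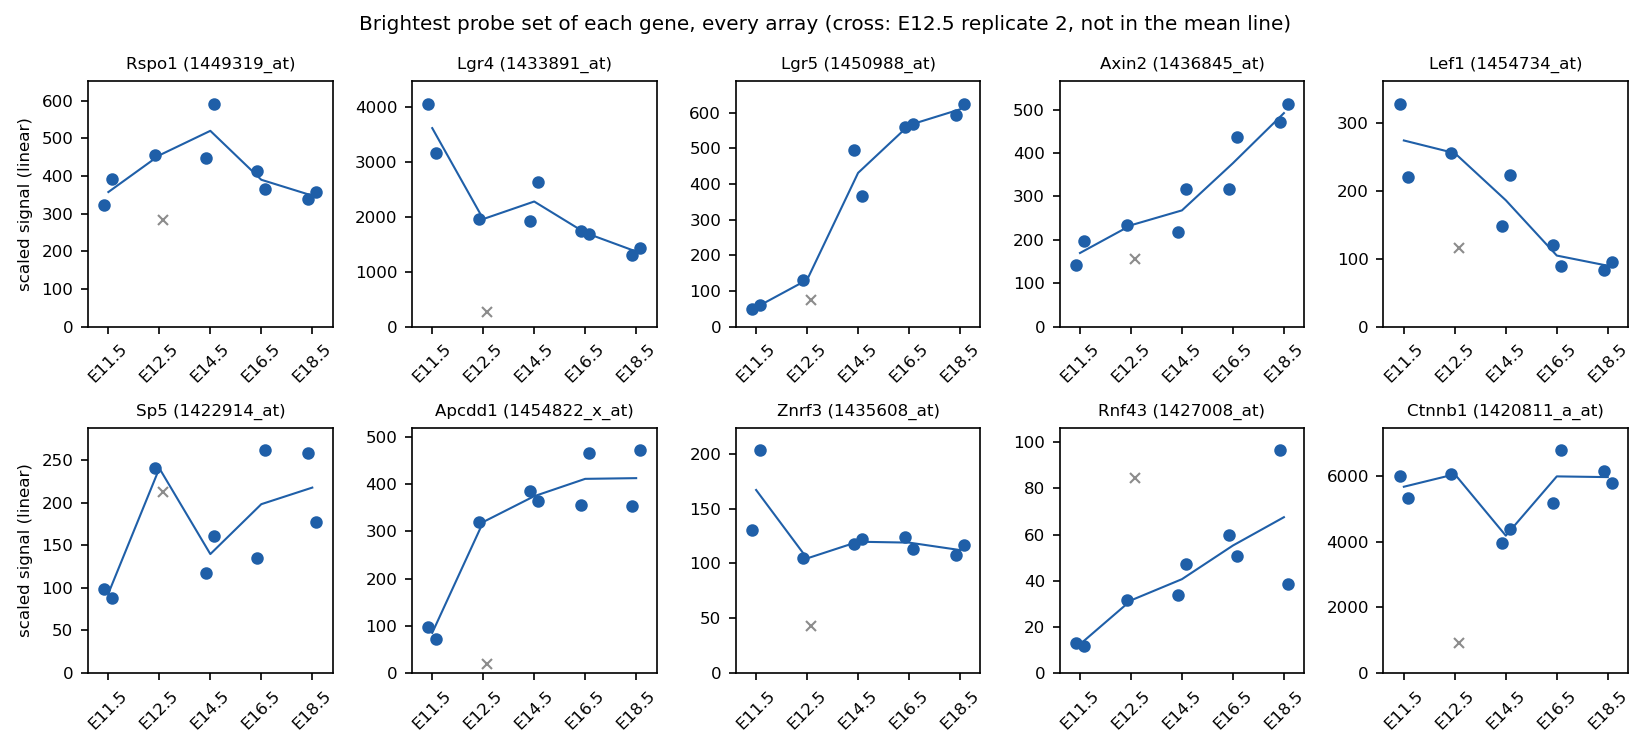
Scaled linear signal (vertical axis, arbitrary units) of the brightest probe set of each of the 10 genes on every array by stage; circles are arrays, the line joins stage means, and the grey cross is E12.5 replicate 2, which is in no mean or test. Lgr5 and Axin2 are highest at E18.5, Lgr4 and Lef1 are highest at E11.5, and Rspo1 is highest at E14.5.

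Rspo1 was measured by 1 probe set, 1449319_at. Its signal was 322 and 392 at E11.5, 455 at E12.5, 448 and 592 at E14.5, 414 and 366 at E16.5, and 339 and 357 at E18.5. Both E14.5 arrays lay above both E11.5 and both E18.5 arrays, whereas the E18.5 and E11.5 arrays overlapped. The log2 change was 0.52 ± 0.20 (SE) at E14.5 against E11.5 (adjusted p = 0.178) and -0.55 ± 0.20 at E18.5 against E14.5 (adjusted p = 0.0974), and neither passed. At E18.5 against E11.5 it was -0.03, with a 95% interval of -0.47 to 0.41 and an adjusted p of 0.926; on values as deposited, with quantile normalization, and without E11.5 replicate 2 or E18.5 replicate 1 its sign turned positive, up to 0.14.

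Lgr4 encodes a broadly expressed R-spondin receptor. Probe set 1433891_at read 4063 and 3174 at E11.5, 1960 at E12.5, 1933 and 2627 at E14.5, 1741 and 1679 at E16.5, and 1309 and 1428 at E18.5. Both E11.5 arrays were the highest of the series and both E18.5 arrays the lowest, with no overlap between any pair of the 4 stages with 2 arrays. Lgr4 fell at E18.5 against E11.5, with a log2 change of -1.38 ± 0.22 (adjusted p = 5.56e-04), and at E16.5 against E11.5, with -1.06 ± 0.22 (adjusted p = 0.00459). The step from E11.5 to E14.5 did not pass (-0.67, adjusted p = 0.104). The E18.5 signal was lower than that at E14.5 (-0.71, adjusted p = 0.0470), a call that was lost when any 1 E14.5, E16.5 or E18.5 array was left out (adjusted p 0.0538 to 0.298).

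Lgr5 encodes the R-spondin receptor known as a marker of epithelial stem cells, and in the mouse ovary it is known from the surface epithelium and pregranulosa cells. Probe set 1450988_at read 48.1 and 59.3 at E11.5, 131 at E12.5, 496 and 366 at E14.5, 561 and 569 at E16.5, and 594 and 625 at E18.5. All arrays from E14.5 on lay above the E12.5 array, which lay above both E11.5 arrays. Lgr5 rose at E14.5 against E11.5 by 2.67 ± 0.21 on the log2 scale (adjusted p = 4.01e-06) and at E18.5 against E11.5 by 3.17 ± 0.21 (adjusted p = 4.89e-07). The later steps were smaller and did not pass, with 0.39 at E16.5 against E14.5 (95% interval -0.05 to 0.84, adjusted p = 0.319) and 0.11 at E18.5 against E16.5 (-0.34 to 0.55, adjusted p = 0.874). Its call at E18.5 against E11.5 held without any 1 of the 9 arrays and also with all 10 arrays in the fit (adjusted p = 0.00654), where no other probe set of the 10 genes passed.

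The other Lgr5 probe set, 1444519_at, was dim at every stage. It read between 21.4 and 65.6 on the 8 arrays outside E12.5 and 6.70 at E12.5, under the floor. Its log2 change at E18.5 against E11.5 was 0.34 ± 0.38 (adjusted p = 0.544), so it did not pass. The other Lgr4 probe set, 1453765_at, read 6.32 to 35.6 and failed the filter.

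Znrf3 and Rnf43 encode the membrane ligases that degrade Frizzled, and both are known Wnt targets that feed back on the pathway. Znrf3 (1435608_at) read 131 and 203 at E11.5, 105 at E12.5, 117 and 122 at E14.5, 124 and 114 at E16.5, and 107 and 117 at E18.5. All later arrays lay below both E11.5 arrays, yet the log2 change at E18.5 against E11.5 was -0.49 with a 95% interval of -1.0 to 0.03 (adjusted p = 0.154) and did not pass. A further Znrf3 probe set, 1437646_at, read 10.9 to 57.6 on the 9 arrays and failed the filter.

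Rnf43 (1427008_at) read 13.2 and 11.7 at E11.5, both under the floor, 31.5 at E12.5, 34.0 and 47.3 at E14.5, 59.9 and 50.6 at E16.5, and 96.5 and 38.5 at E18.5. All later arrays lay above both E11.5 arrays, and the 2 E18.5 arrays were far apart. It reached the filter value of 47.9 on 3 arrays only, both of E16.5 and E18.5 replicate 1, so it was tested only because it is high there. Rnf43 was at least 2.71-fold higher at E18.5 than at E11.5, taking E11.5 at the floor (adjusted p = 0.0174). The call was lost without E11.5 replicate 1 (adjusted p = 0.0625), E11.5 replicate 2 (adjusted p = 0.0678) or E18.5 replicate 1 (adjusted p = 0.187).

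Ctnnb1 encodes beta-catenin, which also joins cadherins to the cytoskeleton, and its 3 probe sets did not move together. Probe set 1420811_a_at read 6006 and 5333 at E11.5, 6050 at E12.5, 3964 and 4397 at E14.5, 5190 and 6780 at E16.5, and 6155 and 5772 at E18.5. Probe set 1450008_a_at read 2079 and 2154 at E11.5, 324 at E12.5, 1177 and 1319 at E14.5, 1548 and 1341 at E16.5, and 1159 and 1206 at E18.5. The E18.5 and E11.5 arrays overlapped in 1420811_a_at, and in 1450008_a_at both E18.5 arrays lay below both E11.5 arrays.

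At E18.5 against E11.5, the log2 change of Ctnnb1 was 0.07 ± 0.23 in 1420811_a_at (adjusted p = 0.839), -0.11 ± 0.18 in 1430533_a_at (adjusted p = 0.682) and -0.83 ± 0.19 in 1450008_a_at (adjusted p = 0.00556). Only 1450008_a_at passed, and it no longer did with quantile normalization (adjusted p = 0.0995), without E18.5 replicate 1 (adjusted p = 0.0707) or without E18.5 replicate 2 (adjusted p = 0.0509). At E14.5, all 3 probe sets lay below both E11.5 values on both arrays, as did 25.6% of all probe sets tested. The log2 changes of the 3 were -0.44, -0.56 and -0.76 in the same order. Of these the change of 1450008_a_at passed (adjusted p = 0.0353), and it was lost without any 1 E11.5, E14.5 or E18.5 array (adjusted p 0.0580 to 0.260), with quantile normalization (0.149), with no intensity trend (0.0997) and with no filter (0.0505).

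**Figure D2:**
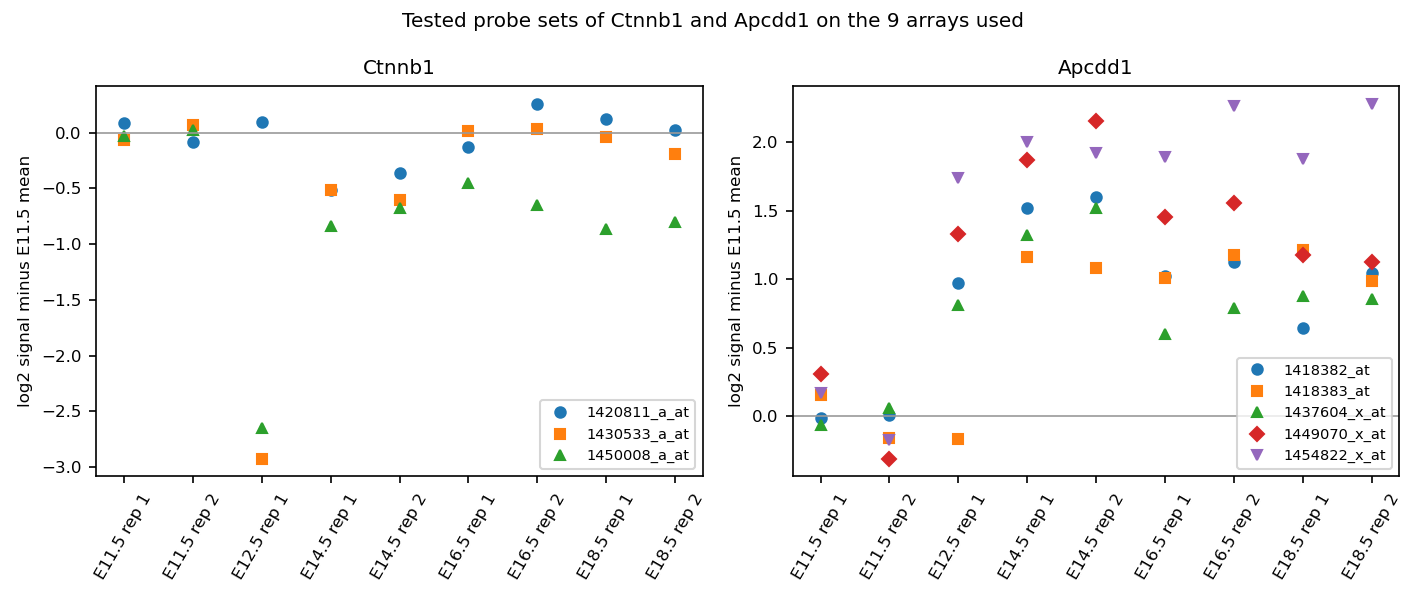
Log2(signal + 16) minus the E11.5 mean of the same probe set (vertical axis) on the 9 arrays used, for the 3 probe sets of Ctnnb1 (left) and the 5 tested ones of Apcdd1 (right). The Ctnnb1 probe sets lie far apart on the E12.5 array, and 4 of 5 Apcdd1 probe sets lie above their E11.5 values there.

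Lef1 encodes a transcription factor that binds beta-catenin, and it is itself a known Wnt target in several tissues. Probe set 1454734_at read 328 and 220 at E11.5, 255 at E12.5, 148 and 224 at E14.5, 119 and 89.4 at E16.5, and 83.7 and 95.2 at E18.5. The E16.5 and E18.5 arrays lay below all arrays of the earlier stages, while E14.5 overlapped E11.5. Lef1 fell by 1.44 ± 0.26 on the log2 scale at E18.5 against E11.5 (adjusted p = 0.00153). It fell by 0.91 at E18.5 against E14.5 (adjusted p = 0.0368), a call lost without E14.5 replicate 2 (adjusted p = 0.242), E18.5 replicate 1 (adjusted p = 0.195) or E18.5 replicate 2 (adjusted p = 0.112). Another probe set, 1421299_a_at, read 24.7 to 94.9 on the 9 arrays, and its change at E18.5 against E11.5 was -0.66 ± 0.35 (adjusted p = 0.181).

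Axin2 encodes a scaffold of the destruction complex and is the most widely used readout of canonical Wnt signalling. Probe set 1436845_at read 142 and 197 at E11.5, 233 at E12.5, 218 and 318 at E14.5, 317 and 436 at E16.5, and 470 and 513 at E18.5. Both E18.5 arrays lay above all other arrays, and the E14.5 and E16.5 arrays just overlapped. Axin2 rose by 1.47 ± 0.24 on the log2 scale at E18.5 against E11.5 (adjusted p = 7.82e-04), a 2.77-fold difference that held without any 1 of the 9 arrays. It also rose at E18.5 against E14.5, by 0.86 (adjusted p = 0.0342), which was lost without E14.5 replicate 1 (adjusted p = 0.236), E18.5 replicate 1 (adjusted p = 0.140) or E18.5 replicate 2 (adjusted p = 0.172).

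The second Axin2 probe set, 1421341_at, was tested as well. It read 13.9 (under the floor) and 42.3 at E11.5, 5.0 at E12.5, also under the floor, 54.3 and 72.0 at E14.5, 81.8 and 81.4 at E16.5, and 89.4 and 94.2 at E18.5. Every array from E14.5 on lay above both E11.5 arrays, and only those reached the filter value. With 1 of the 2 E11.5 arrays above the floor, its change at E18.5 against E11.5 was 1.37 ± 0.35 (adjusted p = 0.0122), and the call was lost without E11.5 replicate 1 (adjusted p = 0.125), E18.5 replicate 1 (adjusted p = 0.0586) or E18.5 replicate 2 (adjusted p = 0.0643).

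Sp5 encodes a transcription factor that is a direct Wnt target in mouse embryos, and its promoter window carries the 2 TCF/LEF motifs shown above. Probe set 1422914_at read 99.3 and 87.8 at E11.5, 241 at E12.5, 118 and 162 at E14.5, 135 and 262 at E16.5, and 259 and 177 at E18.5. Both E11.5 arrays were the lowest of the 9, but the arrays of E14.5, E16.5 and E18.5 were spread widely within each stage. Those of E16.5 overlapped E14.5 and E18.5, while both E18.5 arrays lay above both E14.5 arrays. The log2 change at E18.5 against E11.5 was 1.08 ± 0.29 (adjusted p = 0.0161), and the call was lost without E11.5 replicate 2 (adjusted p = 0.0723) or E18.5 replicate 1 (adjusted p = 0.151).

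Apcdd1 encodes a membrane glycoprotein that inhibits Wnt signalling and is induced by it. Probe set 1454822_x_at read 97.1 and 72.9 at E11.5, 320 at E12.5, 385 and 363 at E14.5, 356 and 466 at E16.5, and 354 and 472 at E18.5. Probe set 1418382_at read 68.7 and 70.3 at E11.5, 152 at E12.5, 229 and 244 at E14.5, 158 and 171 at E16.5, and 117 and 161 at E18.5. In both probe sets all later arrays lay above both E11.5 arrays; 1454822_x_at stayed high from E14.5 on, while 1418382_at was highest at E14.5.

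All 5 tested probe sets of Apcdd1 were higher at E14.5 than at E11.5, with log2 changes of 1.12 to 2.02 and adjusted p-values of 1.42e-04 to 0.0395; the call of 1418383_at there was lost without any 1 array outside E12.5 (adjusted p 0.0515 to 0.221), with no filter (0.0986) and with quantile normalization (0.0764), and it reached the filter value only from E14.5 on. All 5 were also higher at E18.5 than at E11.5, by 0.85 to 2.08 (adjusted p 3.27e-05 to 0.0129). Of the 5, 1449070_x_at and 1454822_x_at kept the call at E18.5 without any 1 array. Leaving out an array ended it for 1418382_at (E11.5 replicate 1, adjusted p = 0.0511, or E18.5 replicate 2, 0.127), 1418383_at (E11.5 replicate 2, 0.0782, or E18.5 replicate 1, 0.0856) and 1437604_x_at (E18.5 replicate 1, 0.0567).

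Between E14.5 and E18.5 the probe sets of Apcdd1 differed. At E18.5 against E14.5 the changes of 1418382_at (-0.72, adjusted p = 0.0490) and 1449070_x_at (-0.86, adjusted p = 0.0306) passed, and both calls were lost without any 1 E14.5 or E18.5 array (adjusted p 0.0711 to 0.318), that of 1418382_at also without 1 E16.5 array (0.0549 and 0.0554). Probe set 1454822_x_at changed by 0.12 (adjusted p = 0.765). An _x_at probe set may share probes with other sequences, and 3 of the 5 are of that kind. The remaining probe set, 1443639_at, read 1.04 to 34.9 on the 9 arrays and failed the filter.

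**Figure D3:**
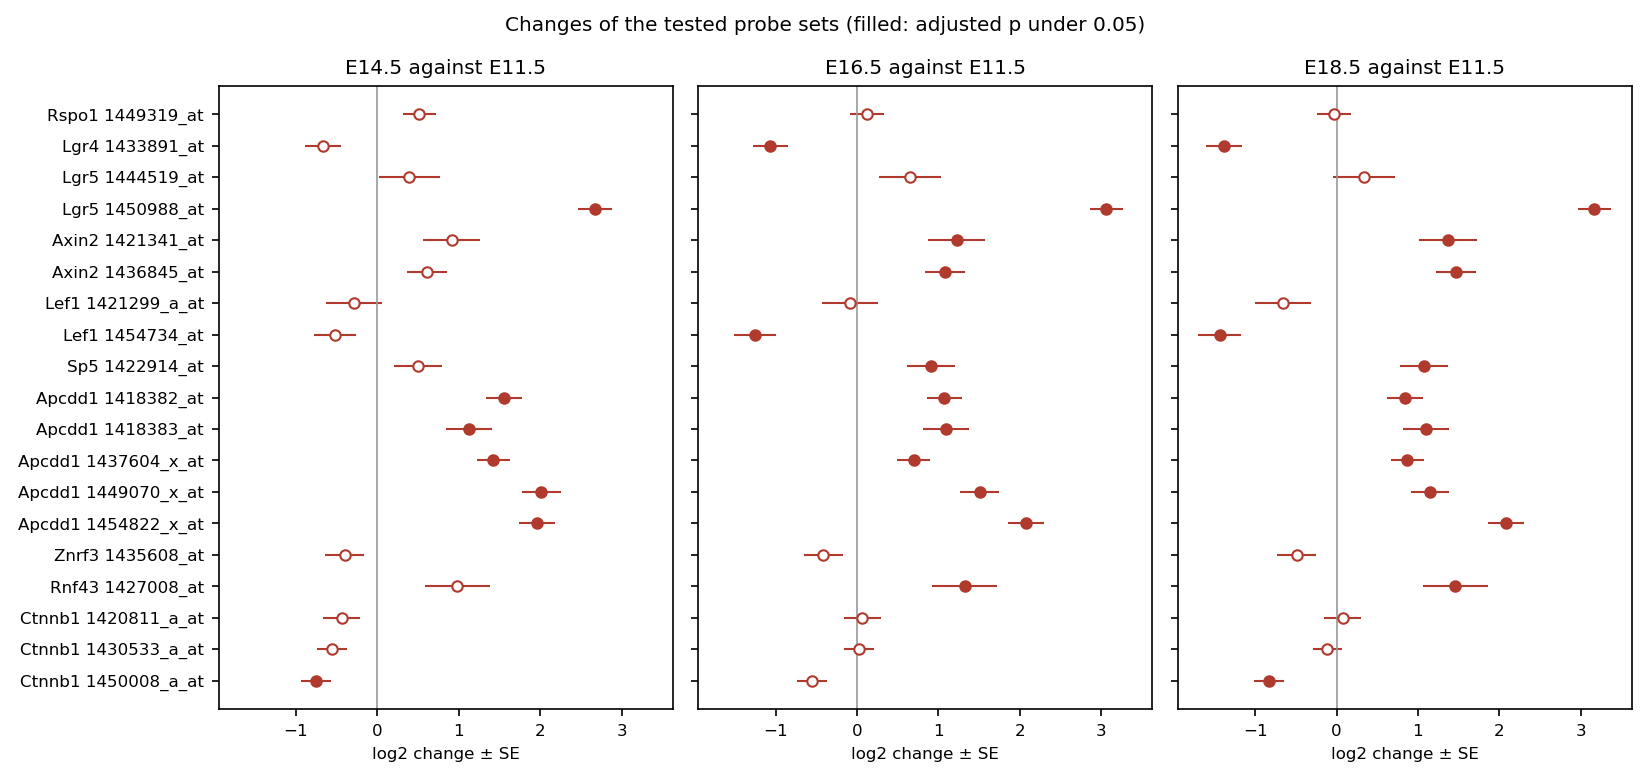
Log2 change ± SE (horizontal axis) of the 19 tested probe sets at E14.5, E16.5 and E18.5 against E11.5; filled circles have an adjusted p under 0.05. Lgr5 1450988_at and the 5 Apcdd1 probe sets pass in all panels, and Lgr4, Lef1 1454734_at and Axin2 pass from E16.5 on.

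At E14.5 against E11.5, 6 of the 19 tested probe sets, of Lgr5 and Apcdd1, were higher and 1, of Ctnnb1, lower, against 4.62% of all probe sets called (2.73% higher, 1.88% lower). Of the 6, 5 are of the 1 gene Apcdd1, and they include 1418383_at, which reached the filter value only from E14.5 on and counts as no support. By the brightest probe set of each gene, 2 of 10 genes were higher and 0 lower, against 3.5% and 2.12% of all genes. At E16.5 against E11.5, 10 were higher, 5 of them of Apcdd1, and 2 lower, against 19% called (7.92% higher, 11.1% lower). By gene, 5 of 10 were higher, Rnf43 among them, and 2 lower, against 8.37% and 13.4% of all genes. The lower counts are near these shares. The 10 probe sets include those of Rnf43, Axin2 1421341_at and Apcdd1 1418383_at, which reached the filter value only after E11.5, so they count as no support. Sp5 was then 0.91 higher on the log2 scale (adjusted p = 0.0454). Rnf43 changed by 1.32 on that scale (adjusted p = 0.0361), and the geometric mean of its E16.5 signals was 2.45-fold that of the E11.5 floors. The Rnf43 call was lost without any 1 E11.5 or E16.5 array (adjusted p 0.111 to 0.137), and the Sp5 call without any 1 array other than E12.5 and E16.5 replicate 1 (0.0512 to 0.380). Both were also lost with no filter (0.0688 and 0.0932) and with quantile normalization (0.0652 and 0.0719), that of Rnf43 with a pseudocount of 64 (0.0566), and that of Sp5 with a pseudocount of 1 (0.0518) and no intensity trend (0.0980). Without E16.5 replicate 2 the count at E16.5 was 5 and the calls over all probe sets 2190, against 5238; without E11.5 replicate 1 they were 6 and 2833. Without any 1 array, 5 of the 7 calls held at E14.5, 5 of the 12 at E16.5 and 6 of the 13 at E18.5. These comparisons share the 2 E11.5 arrays.

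No probe set of the 10 genes passed between neighbouring stages after E14.5. At E16.5 against E14.5, 0 of 19 passed with limma, where 3.06% of all probe sets did, and 6 had an unadjusted p under 0.05; with quantile normalization 1 passed, a Ctnnb1 probe set (adjusted p = 0.0358). At E18.5 against E16.5, 0 of 19 passed with limma, where 0.803% of all probe sets did, and 0 had an unadjusted p under 0.05. Over the longer interval, at E18.5 against E14.5, 1 was higher and 4 lower, where 12.8% of all probe sets were called, and 0 of the 5 calls held without any 1 array. All 5 were also lost with no filter and with no intensity trend, and without E18.5 replicate 1 or 2 the count was 0 and the calls over all probe sets 711 and 1187, against 3510; it was 1 without either E14.5 array (1405 and 1323) and 3 without either E16.5 array. An F test over the 4 stages with 2 arrays called 11 of the 19, where 24.4% of all probe sets were called. The 11 include Axin2 1421341_at and Apcdd1 1418383_at, which count as no support.

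At E12.5 against E11.5, on the single E12.5 array, 5 of the 19 were higher and 2 lower, against which 9.03% of all probe sets were called. On the log2 scale Lgr5 was 1.08 higher (adjusted p = 0.0184), Sp5 1.23 higher (adjusted p = 0.0487), and Apcdd1 higher in 3 probe sets by 0.97 to 1.74. The Ctnnb1 probe sets 1430533_a_at and 1450008_a_at were lower, with log2 changes of -2.93 and -2.65 (adjusted p = 1.94e-05 and 4.08e-05), while 1420811_a_at changed by 0.10 (adjusted p = 0.874). This is the array with the Actb 3′ to 5′ ratio of 10.6, and the part of that ratio in these values was not tested. The calls of Lgr5, 1454822_x_at of Apcdd1 and both Ctnnb1 probe sets held without any other single array. The Sp5 call and the other 2 of Apcdd1 were lost without E11.5 replicate 2. Those of Sp5 and 1418382_at were also lost without E11.5 replicate 1 or any 1 E14.5 or E18.5 array. The Lgr5 call was lost in the 3 arrays of that run alone, with no intensity trend and with a pseudocount of 64 (log2 change 0.73).

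Over the 9 arrays, the log2 values of the brightest probe sets gave r = 0.910 for Lgr5 with Apcdd1, 0.884 for Lgr4 with Lef1, 0.837 for Lgr5 with Axin2 and -0.861 for Lgr4 with Lgr5. Rspo1 gave r between -0.681 (Ctnnb1) and 0.297 (Lef1) with the other 9 genes. These 9 points are 5 stages in 3 runs, so the values describe a shared course over stages. Among all genes, those most like Rspo1 were Uba6 (r = 0.939), Trip11 (0.909), Sh3glb1 (0.905), Nr2c2 (0.889) and Fam189b (0.883). Most like Lgr5 were Sorbs2 (r = 0.993), Esr1 (0.990), Stk31 (0.990), Smc1b (0.990) and Egfl6 (0.986), and most like Axin2 were Ccdc136 (0.973), Megf6 (0.970), Tollip (0.969), Mettl4 (0.967) and Eif4enif1 (0.966).

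The genes around the 10 in the pathway moved in both directions. Of 53 further pathway genes in 5 lists, 45 were tested, and 11 were higher and 8 lower at E18.5 than at E11.5, where 13.4% of all genes were higher and 16.6% lower, so the lower count is near that share. The 11 include Cd44 and Nkd2, which lay under the filter value at E11.5 and count as no support. All 5 lists were chosen with earlier results of these data known, so their counts beside these shares are no test. The median log2 change of the 45 was 0.07. Changes of single genes in these lists are on the log2 scale. None of the 4 tested R-spondins, receptors and co-receptors (Rspo2, Rspo3, Lgr6 and Lrp6) passed with limma, and 0 of them had an unadjusted p under 0.05. Rspo3, another R-spondin gene, read 32.9 and 33.7 at E11.5, 71.1 at E12.5, 65.0 and 57.8 at E14.5, 24.5 and 43.7 at E16.5, and 25.8 and 33.8 at E18.5; its change at E14.5 against E11.5 was 0.65 ± 0.35 (adjusted p = 0.329).

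Among 15 tested genes of the cytoplasmic relay and destruction complex, 1 was higher and 4 lower at E18.5 than at E11.5, beside 13.4% and 16.6% of all genes. Dvl1, a Dishevelled that relays the Wnt signal, was 1.1 ± 0.27 higher on the log2 scale (adjusted p = 0.0103). The kinase genes Csnk1a1 and Gsk3a, whose products phosphorylate beta-catenin for destruction, changed by -1.15 (adjusted p = 0.00241) and -1.05 (adjusted p = 0.00371), and the scaffold gene Amer1 by -1.07 (adjusted p = 0.00985).

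Among 12 tested nuclear partners of beta-catenin, 2 were higher and 3 lower, again beside 13.4% and 16.6% of all genes. The corepressor gene Tle3 was 0.89 higher (adjusted p = 0.0135) and Ctnnbip1, whose product blocks the binding of beta-catenin to TCF, was 0.83 higher (adjusted p = 0.0168). The TCF genes Tcf7l1 and Tcf7l2 changed by -0.97 (adjusted p = 0.0349) and -0.86 (adjusted p = 0.0301), and Tle4, another corepressor, by -0.74 (adjusted p = 0.0306).

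Among 9 other tested Wnt target genes, 4 were higher and 1 lower, beside 13.4% and 16.6% of all genes. The 4 include Cd44 and Nkd2, which lay under the filter value at E11.5 and count as no support. Cd44, a hyaluronan receptor, was 3.03 ± 0.22 higher (adjusted p = 1.15e-06). Nkd1 and Nkd2, which encode inhibitors that bind Dishevelled, were 0.89 (adjusted p = 0.0208) and 0.86 higher (adjusted p = 0.0363), and Bambi, a decoy receptor of TGF-beta signalling, changed by -1.36 (adjusted p = 7.43e-04). The median of this list was -0.25, opposite in sign to its balance of calls.

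In the list of the ovarian R-spondin and Wnt4 arm (Wnt4, Fst, Bmp2, Foxl2 and Irx3), 4 of 5 genes were higher at E18.5 than at E11.5, beside 13.4% of all genes. The list was chosen with earlier results of these data known, so its count beside that share is no test. Whether these genes respond to Rspo1 or Wnt4 was not tested. Irx3, a homeobox gene of pregranulosa cells, was 3.27 ± 0.20 higher (adjusted p = 3.24e-07), Foxl2, a granulosa cell transcription factor, 1.67 higher (adjusted p = 6.09e-05), and Fst, which encodes the activin antagonist follistatin, 0.90 higher (adjusted p = 0.0102). Wnt4, the Wnt ligand of the fetal ovary, read 436 and 437 at E18.5 against 354 and 564 at E11.5, a log2 change of -0.03 (adjusted p = 0.928). Of the 19 calls in the 5 lists, 6 held without any 1 array, those of Irx3, Foxl2, Cd44, Bambi, Csnk1a1 and Gsk3a. That of Cd44 counts as no support, as it lay under the filter value at E11.5.

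**Figure D4:**
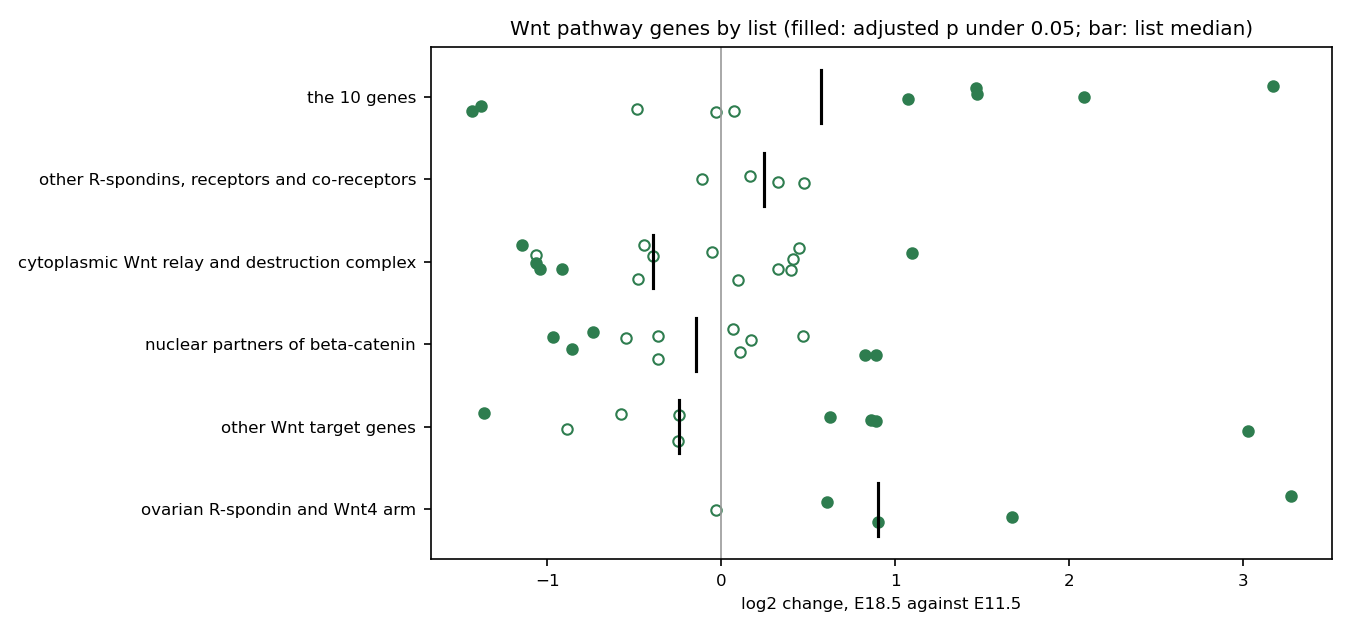
Log2 change at E18.5 against E11.5 (horizontal axis) of the brightest probe set of each tested gene in the 10 genes and the 5 other lists; filled circles have an adjusted p under 0.05 and bars mark list medians. The 10 genes spread to both sides of 0, and the lists hold calls in both directions except the receptors, which hold none, and the ovarian arm, which holds higher ones.

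Markers of several cell types moved over the same stages, and in whole ovaries fewer cells of a type and less RNA per cell cannot be told apart. The summed signal of the 5 surface epithelium markers was 1050 to 1380 at E11.5, 1560 at E12.5, 2190 to 2860 at E14.5, 2420 to 3080 at E16.5 and 3160 to 3450 at E18.5. That of the 5 stroma markers was 3940 to 4290 at E11.5, 3390 at E12.5, 5030 to 6020 at E14.5, 7000 to 9120 at E16.5 and 6690 to 7310 at E18.5. Both sums were higher at E18.5 than at E11.5, as were Lgr5, Axin2, Sp5 and Apcdd1.

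The 7 ovarian somatic markers summed to 2970 to 3200 at E18.5 against 3380 to 4250 at E11.5, and the 5 germ cell markers to 4440 to 4660 against 2790 to 3770. The somatic sum is of linear signals, in which bright markers weigh most. Its members did not all fall, as Foxl2 and Fst were higher at E18.5 than at E11.5. Germ cell sums were highest at E12.5 and E14.5 (6920 to 7880), where Rspo1 also had its highest signals. The 5 endothelial markers summed to 441 to 463 at E18.5 against 806 to 1030 at E11.5, and the 3 leukocyte markers to 209 to 210 against 351 to 568.

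Markers of neighbouring tissue and blood changed as well. The 4 mesonephros and duct markers on the array summed to 105 to 201 over the 9 arrays, with Lhx1 or Gata3 or both at or under the floor at each stage. The 4 hepatocyte markers summed to 3180 to 3480 at E18.5 against 88.2 to 99.7 at E11.5, the 4 erythroid markers to 1060 against 22200 to 29300, and the 2 exocrine pancreas markers to 12.1 to 16.6 against 999 to 1460. The part of these cell types in the changes of the 10 genes was not tested.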

How the data were processed

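The deposited value table held linear intensity values, 1 signal per probe set and array, with no detection calls; per the labels' protocols, total RNA was extracted with Trizol and labelled with biotin by a single-cycle protocol. The mean after trimming 2% at each end, averaged over the 10 arrays, was 125. Whether the authors had scaled the arrays was not tested, and the software used is not given in the sources used here. Array files held scan and fluidics settings and were used for array type and run.

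Each array was rescaled to a common 75th percentile of 142. Control probe sets (64) were left out, and the filter asked for 2 or more of the 9 arrays at 47.9 (the overall median) or brighter and passed 27512. limma 3.58.1 (R 4.3.3; a mean for each stage, trended eBayes, two-sided) was fitted to log2(signal + 16), with 4 residual and 9.25 prior degrees of freedom; p-values measure the spread between preparations. Tables used pandas 2.3.3 and numpy 2.4.6 under Python 3.11.15, and figures matplotlib 3.10.9. The limma step was tested on simulated data.

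Symbols came from the platform annotation: 1 symbol stood on 34945 probe sets, several on 932 and none on 9160, and 34741 matched a current gene by identifier. All probe sets of the 10 genes are reported; of the other pathway genes, at most 3 a direction and list with the largest called changes are named, on the brightest probe set, and Rspo3 and Wnt4 were added after their values were seen. For likeness the 5 genes with the highest r are named. The members and lists were chosen with earlier results of these data known. Replicates of the same number did not deviate together (r -0.0728 to 0.0359), so no pairing was used. Alternatives covered the arrays included, scaling, pseudocount, filter, trend and leaving out each array. The number of arrays limits the precision.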

Additional observations from a re-analysis of the deposited data

How the results depend on the processing

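With all 10 arrays in the fit, 1 probe set of the 10 genes passed in each of E12.5 against E11.5 (7 with 9 arrays), E14.5 against E11.5 (7), E16.5 against E11.5 (12), E18.5 against E11.5 (13) and the F test (11), 0 passed at E18.5 against E14.5 (5), and the calls over all probe sets at E18.5 against E11.5 were 317, against 7220. Apart from leaving out 1 array, other settings also moved a count by over 1.5 times. With no intensity trend it was 4 at E12.5 against E11.5. Leaving out _x_at probe sets, chosen after seeing the data, gave 4 at E14.5 against E11.5, with fewer probe sets tested. Quantile normalization gave 1 at E16.5 against E14.5, against 0. At E18.5 against E14.5 the count was 0 with no filter, 0 with no intensity trend, 3 with a pseudocount of 1 and 3 with a replicate block. Without 1 array at a time the counts ran from 5 to 7 at E12.5 and at E14.5 against E11.5, from 5 to 12 at E16.5 against E11.5, from 7 to 13 at E18.5 against E11.5, from 0 to 5 at E18.5 against E14.5, from 9 to 12 in the F test, and were 0 between the later neighbouring stages. Over all probe sets, 3732 and 4298 were called at E18.5 against E11.5 without E18.5 replicate 1 or 2. At E16.5 against E14.5 they numbered 842, and 38 to 1468 without 1 array, 92 with no trend, 295 with no filter and 480 in the 4 arrays of that run alone; at E14.5 against E11.5, 1270, and 483 without E14.5 replicate 1 and 832 with no filter; at E12.5 against E11.5, 2483, 1424 with no trend and 1644 with no filter; at E18.5 against E16.5, 221 and 38 to 58 without 1 E18.5 array.

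Scaling moved the balance of calls over all probe sets: at E18.5 against E11.5, 44.8% of calls were higher, and 56.6% without rescaling (41.6% and 57.6% at E16.5 against E11.5), which gave a median of 0.14 over the tested probe sets, against 0.03. The sign turned, with no call in any setting, for Rspo1 at E18.5 against E11.5 (-0.03; -0.17 to 0.10 without 1 array) on values as deposited (0.0997), with quantile normalization (0.14) and without E11.5 replicate 2 (0.104) or E18.5 replicate 1 (0.0047), for Ctnnb1 1420811_a_at (0.07; -0.011 to 0.16 without 1 array) without E11.5 replicate 2 (-0.011) and for 1430533_a_at (-0.11) on values as deposited (0.023) and with quantile normalization (0.21). Of 342 changes at E18.5 against E11.5 recomputed over 19 probe sets and 18 alternatives, 307 kept their direction and side of the threshold, 28 lost the call and 7 turned sign. Replicate numbers did not pair the arrays; with a replicate block 13 probe sets still passed at E18.5 against E11.5, 12 at E16.5, 6 at E12.5 and 5 at E14.5 against E11.5, 3 at E18.5 against E14.5 and 11 in the F test. The cause of these shifts was not tested.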
